A study of Rattus norvegicus with 6 samples.

Results

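The comparison set rat ovarian surface epithelial cells that were given HMGA2 alone against RAS-transformed cells of the same origin in which HMGA2 was targeted by siRNA. All 4 arrays of these 2 groups were used, of 6 arrays in the series, and all 311 array features other than blank spots were compared, of which 18 are unnamed EST clones. The HMGA2 cells were ROSE199 cells stably transfected with the pEF6 vector carrying an HMGA2 construct and selected in 10 µg/ml blasticidin. The siHMGA2 cells were ROSEA25 cells, which the protocol calls ROSE-RAS cells, given 0.2 µM siHMGA2 duplex with Oligofectamine in doses 24 h apart and taken 48 h after the first dose. Both were grown in 10% fetal calf serum, and every array also carried RNA of untreated ROSE199 cells, the immortal rat ovarian surface epithelium line from which the transfectants were made. Each group had 1 array with its RNA in Cy5 (replicate 1) and 1 with its RNA in Cy3 (replicate 2), taken here as relabelled RNA of 1 culture.

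HMGA2 is a small chromatin protein that binds the minor groove of AT-rich DNA through its AT-hooks and bends it, so that other factors can assemble at enhancers. It is abundant in embryos, nearly silent in most adult tissues and often switched on again in tumours. RAS proteins are membrane-bound GTPases that, when held in the GTP state, drive the RAF-MEK-ERK kinase cascade, which turns on growth factor, AP-1, protease and feedback phosphatase genes and represses many genes of the resting epithelium. The groups differ in more than HMGA2 and RAS: vector selection, siRNA transfection and the derivation of the ROSEA25 line all go with the group and cannot be told apart from it, and neither can the day of image quantification, which was one day for both HMGA2 arrays and a different one for both siHMGA2 arrays.

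Values below are log2 ratios of the sample over ROSE199 RNA on the same array, and a difference is the value in HMGA2 cells minus the value in siHMGA2 cells. It was taken once between the Cy5 arrays and once between the Cy3 arrays, so that a dye effect common to both arrays of a pair cancels, and then averaged. The figure after ± is the distance of either dye pair from that mean. With each group taken as 1 RNA, it is read as covering labelling and hybridization only. For the same reason no test between the groups was made. A feature was called when the mean difference was at least 1 in size and both dye pairs were of one sign and at least 0.5 in size. By this rule 38 features (12.2% of 311) were called higher in HMGA2 cells and 27 (8.68%) lower, together 20.9% of all features, while 195 differed by under 0.5 in size.

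The dye pairs gave much the same difference, with a Pearson correlation of 0.922 and a Spearman correlation of 0.858 across the 311 features, which share the arrays and are not independent. The standard error of the mean difference, taken from the median gap between pairs over all features, was 0.17. Features with wide gaps hardly move this value. The SD of the paired difference was 0.24 on that basis and 0.32 as a root mean square. The pairing mattered most for Ha-ras, which read -1.34 and 1.25 in HMGA2 cells and -1.36 and 1.28 in siHMGA2 cells on the Cy5 and Cy3 arrays. These readings follow the dye and not the cells, and the difference was -0.01 ± 0.02. SM22, a smooth muscle actin-binding protein, and Frat3 reached 1.29 and 1.05 on average but were not called, since their Cy5 pairs gave 0.31 and 0.22 against Cy3 pairs of 2.27 and 1.88.

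**Figure D1:**
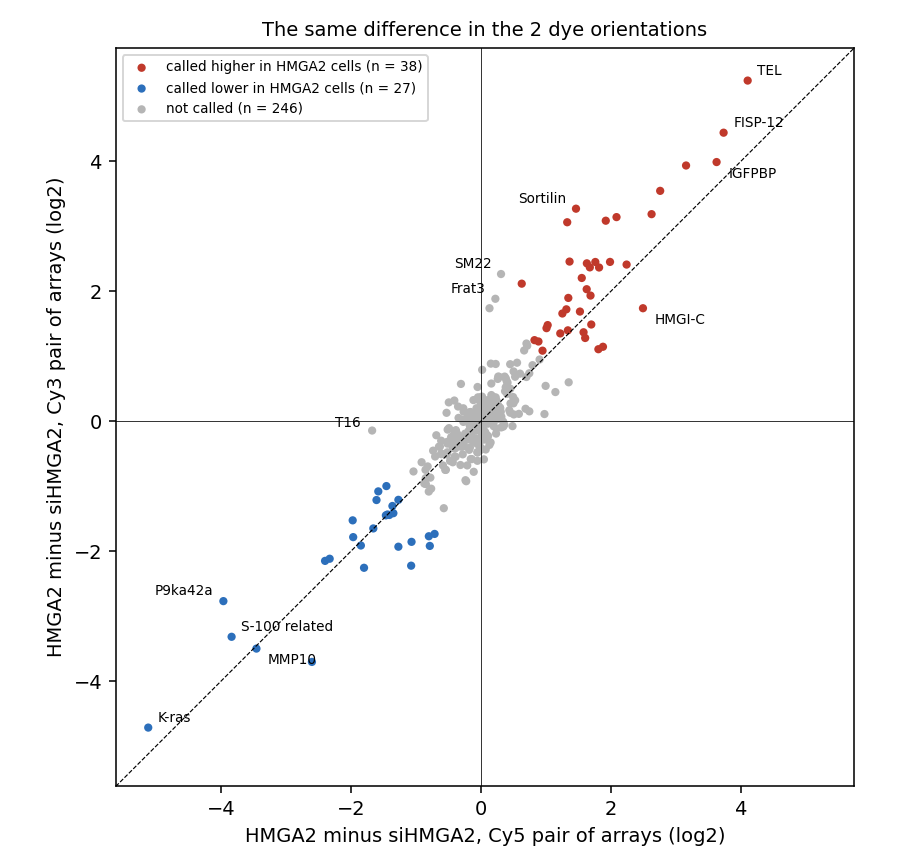
Difference between HMGA2 and siHMGA2 cells (log2) in the Cy5 pair of arrays on the x axis and in the Cy3 pair on the y axis, 1 point per feature (311 in all), with the line of equal values dashed. The points run from K-ras at -5.12 and -4.71 to TEL at 4.10 and 5.24, and the 5 farthest off the line are SM22, the called features Sortilin and P-cadherin, Frat3 and Cyr61.

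The RAS and HMGA2 readings came first as a check of the labels. K-ras, the oncogene that marks the transformed line, read -0.29 and -0.11 in HMGA2 cells, against 4.82 and 4.60 in siHMGA2 cells. The groups were far apart on both arrays, and the difference of -4.91 ± 0.20 (30.2-fold) was the largest of all features. The other 5 of the 6 RAS genes and relatives were not called, so 1 of 6 was lower, beside 8.68% of all features. Nras-rat was at -0.36 ± 0.02, Krev1, a RAS antagonist, at -0.43 ± 0.09 and the list median at -0.26 (0.064 when arrays were centred on beta actin). The HMGA2 feature, listed under the older symbol HMGI-C, read 3.70 and 3.33 in HMGA2 cells, against 1.20 and 1.59 in siHMGA2 cells. HMGA2 cells thus held more of it by 2.12 ± 0.38 (4.34-fold). The siHMGA2 cells nevertheless stood above ROSE199 on both arrays, by 1.40 on average, so the group is called here by its siRNA and not as depleted. On the single array of ROSEA25 cells with siRNA against EGFP, with its RNA in Cy5, HMGI-C read 2.40. Of the reported HMGA2 targets, P16 (ink4a) at -0.52 ± 0.01 and c-myc at -0.52 ± 0.13 were not called, and JunB was called lower. The list of HMGA proteins and reported targets had 1 of 4 members higher and 1 lower, beside 12.2% and 8.68% of all features. The higher member was HMGI-C itself, the gene that the vector and the siRNA were meant to change, and no target was higher. Its median was -0.52, against -0.01 over all features.

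Among RAS-MAPK feedback and early response genes, 8 of 22 were called lower in HMGA2 cells and none higher, with a median difference of -0.64, beside 8.68% of all features lower and a median of -0.01. This list, like the others, was chosen with earlier results of these data known, so list counts are descriptions only. The 8 were TGF alpha, CD44, Mkp3, Cpg21, Fra-1, JunB, CyclinD1 and TDAG51. The list held no kinase of the cascade, and MAP kinase kinase 1, outside it, was not called (-0.80 ± 0.05). TGF alpha, a ligand of the EGF receptor, read 0.09 and -0.04 in HMGA2 cells, against 0.88 and 1.87 in siHMGA2 cells. Its difference was -1.35 ± 0.57, and in the Cy5 pair alone it was -0.79. CD44, a hyaluronan receptor and ERK-responsive gene, read 0.21 and 0.18 in HMGA2 cells, against 1.48 and 2.11 in siHMGA2 cells, a difference of -1.60 ± 0.33 that was -0.21 in the authors' deposited table.

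The phosphatases that shut ERK off were divided. Mkp3, the cytoplasmic ERK phosphatase, read -0.85 and -0.78 in HMGA2 cells, against 1.13 and 0.74 in siHMGA2 cells (-1.75 ± 0.22). Each group lay on its own side of ROSE199 for this gene, although the difference was -0.64 in the deposited table. Cpg21, which RefSeq lists as Dusp5, a nuclear ERK phosphatase, was lower by a log2 difference of -1.22 ± 0.23, with ROSE199 not above blank on 1 of the 4 arrays. Mkp1 (-0.06 ± 0.21), Mkp2 (-0.22 ± 0.10) and Mkp4 (-0.65 ± 0.10) were not called, and neither was the receptor-tyrosine-kinase inhibitor Sprouty2 (-0.77 ± 0.14).

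Of the AP-1 subunits, Fra-1 and JunB were the called ones. Fra-1, a FOS-family partner that ERK stabilizes, read -0.72 and -0.77 in HMGA2 cells, against 0.34 and 1.08 in siHMGA2 cells (-1.46 ± 0.39). JunB read -0.88 and -0.42 in HMGA2 cells, against 0.47 and 0.99 in siHMGA2 cells (-1.38 ± 0.03), and was at -0.92, short of a call, with beta actin centring. JUN (-0.63 ± 0.05), Fra2 (-0.02 ± 0.16) and JunD (0.21 ± 0.11) were not called, nor were Egr-1 (0.10 ± 0.04) and the ETS factors Ets1 (0.61 ± 0.08), Ets-2 (0.02 ± 0.21) and ER81 (0.01 ± 0.02). CyclinD1, the G1 cyclin, was lower in HMGA2 cells by a log2 difference of -1.33 ± 0.25 and TDAG51, a growth-factor-induced death-associated gene, by -1.65 ± 0.00. In the sample channel alone CyclinD1 was at -1.02 and not called. HB-EFG, the heparin-binding EGF ligand, at -0.90 ± 0.14 and VEGF at -0.17 ± 0.10 were not called. FHL2, a LIM-domain coactivator of AP-1, was also lower, at -1.44 ± 0.00, with -1.11 and -0.85 in HMGA2 cells against 0.33 and 0.58 in siHMGA2 cells.

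The secreted matrix metalloproteinases, which cut collagens and proteoglycans, included 2 of the lowest features. MMP10 (stromelysin 2) read -0.20 and -0.11 in HMGA2 cells, against 3.25 and 3.39 in siHMGA2 cells. HMGA2 cells were at the ROSE199 level and siHMGA2 cells about as far above it on either dye, a difference of -3.47 ± 0.02 (11.1-fold). MMP-3 (stromelysin 1) read -0.49 and -0.02 in HMGA2 cells, against 1.90 and 2.13 in siHMGA2 cells (-2.27 ± 0.12, 4.83-fold). MMP1, the interstitial collagenase, read -0.65 and 0.47 in HMGA2 cells, against -0.37 and 0.44 in siHMGA2 cells. Its readings followed the dye, and it was not called (-0.13 ± 0.15). TIMP-2, which inhibits these enzymes, was called higher in HMGA2 cells (1.37 ± 0.03), with 0.61 and 0.91 in HMGA2 cells against -0.73 and -0.49 in siHMGA2 cells. In all, 1 of 8 proteases and inhibitors was higher, about the 12.2% of all features, 2 were lower, beside 8.68% of all features, and the median was -0.19, with GelatinaseA at -0.26 ± 0.21, Cathepsin D at -0.95 ± 0.38, PAI1 at -0.06 ± 0.17 and UPA at 0.15 ± 0.17.

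Promoter windows from RefSeq were searched on both strands for TGANTCA, the AP-1 element, and for the CArG box, the element of serum response factor, which do not overlap in sequence. Of 311 features, 105 matched 1 RefSeq gene with a window by name, and name matching can err. TGANTCA was found in 3 of 12 windows of lower features (MMP10, MMP-3 and GADD153), in 0 of 11 of higher features and in 8 of 82 of features not called, against 7.33% of all 33469 windows. The CArG box was found in 2 of 12, 0 of 11 and 3 of 82, against 1.64% of all windows. These counts are a description of few windows, and nothing is drawn from them. The 3 metalloproteinase windows are printed as the sequences of the proteases described above, and they were chosen after the motif matches had been seen. Each window runs from 250 bases before to 50 after the RefSeq start in the rat build GRCr8, 300 bases in all, and capitals mark matches to TGANTCA.
MMP10 (chr8:12974457-12974756, plus strand): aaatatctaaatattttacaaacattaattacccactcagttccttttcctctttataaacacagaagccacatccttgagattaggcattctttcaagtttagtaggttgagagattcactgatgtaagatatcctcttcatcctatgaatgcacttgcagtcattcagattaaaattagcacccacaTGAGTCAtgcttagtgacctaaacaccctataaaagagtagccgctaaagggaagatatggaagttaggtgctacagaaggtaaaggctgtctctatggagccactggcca
MMP-3 (chr8:12925031-12925330, plus strand): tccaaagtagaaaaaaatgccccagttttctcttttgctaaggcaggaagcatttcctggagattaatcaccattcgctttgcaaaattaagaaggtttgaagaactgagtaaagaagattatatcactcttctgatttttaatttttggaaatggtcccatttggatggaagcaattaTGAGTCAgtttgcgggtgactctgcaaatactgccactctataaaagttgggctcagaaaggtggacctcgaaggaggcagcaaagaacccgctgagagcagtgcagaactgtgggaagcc
MMP1 (chr8:12943203-12943502, plus strand): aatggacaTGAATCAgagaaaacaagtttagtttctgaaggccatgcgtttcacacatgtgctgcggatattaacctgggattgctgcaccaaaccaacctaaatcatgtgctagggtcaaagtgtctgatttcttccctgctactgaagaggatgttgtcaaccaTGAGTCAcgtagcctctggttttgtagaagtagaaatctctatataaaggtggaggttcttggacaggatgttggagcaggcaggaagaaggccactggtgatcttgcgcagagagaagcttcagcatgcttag
MMP10 and MMP-3 each held 1 match (bases 190 to 196 and 180 to 186 of the window), and MMP1 held 2 (bases 9 to 15 and 167 to 173). The window of MMP1, which was not called, thus held more matches than those of the 2 called features.

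Features for calcium-binding S100 proteins were also lower. P9ka42a, which RefSeq's synonyms place at S100a4, a metastasis-associated S100 protein, read -0.09 and -0.03 in HMGA2 cells, against 3.87 and 2.74 in siHMGA2 cells. The feature named S-100 related read -0.04 and -0.05 in HMGA2 cells, against 3.79 and 3.27 in siHMGA2 cells. HMGA2 cells matched ROSE199 on both features, and the differences were -3.36 ± 0.60 (10.3-fold) and -3.58 ± 0.26 (11.9-fold). By their names and like readings these 2 features may stand for 1 gene, which was not checked, so they may not be separate results. Neuritin, a surface protein of growing neurites, was lower to a like degree (-3.15 ± 0.55, 8.88-fold), at 0.27 and 0.12 in HMGA2 cells against 2.87 and 3.82 in siHMGA2 cells. Ahnak, a giant scaffold protein under the plasma membrane, was below ROSE199 in HMGA2 cells instead, at -2.41 and -2.42 in HMGA2 cells against -0.09 and -0.30 in siHMGA2 cells (-2.22 ± 0.11, 4.66-fold).

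**Figure D2:**
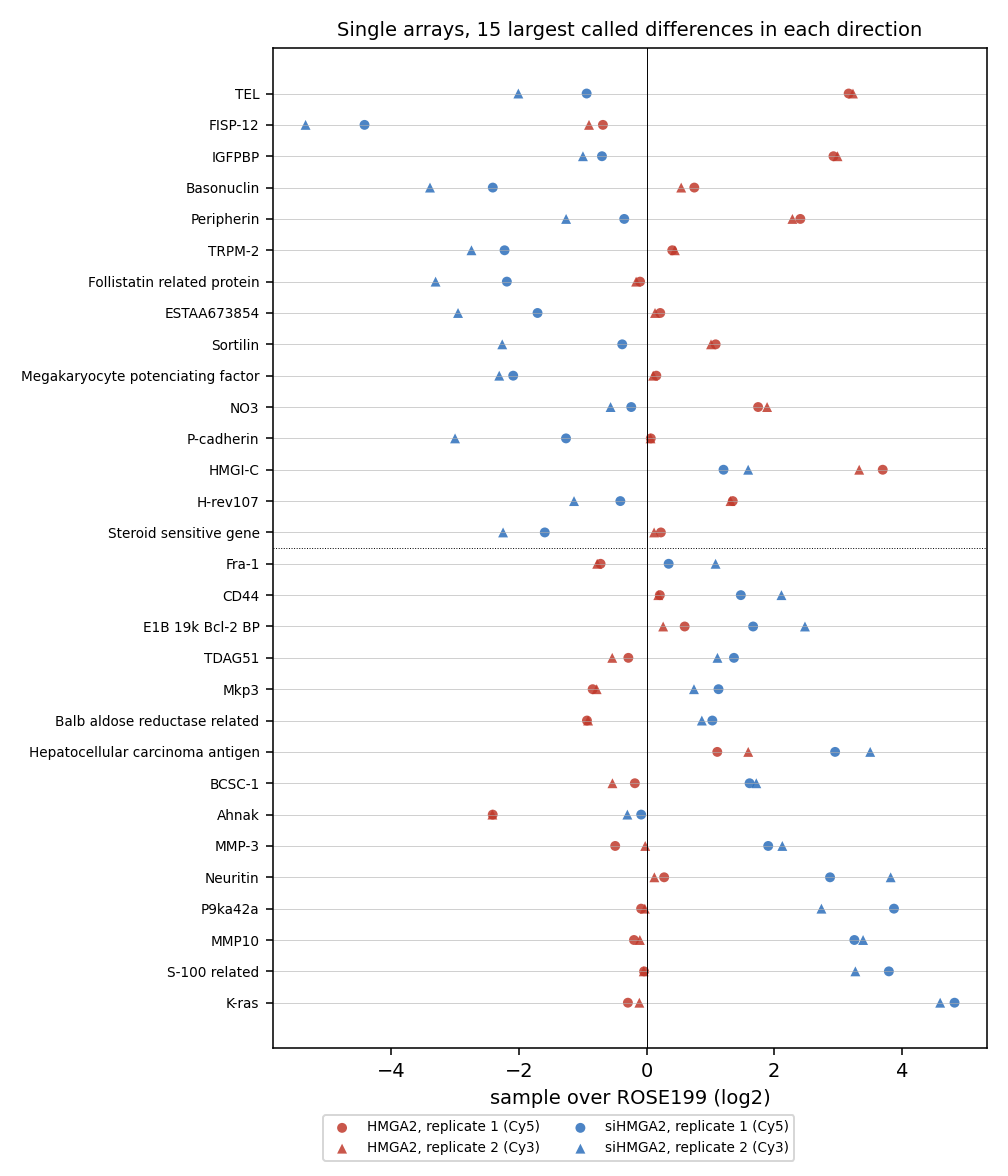
Log2 ratio over ROSE199 (x axis) on each of the 4 arrays for the 15 called features with the largest positive differences (upper rows) and the 15 with the largest negative ones (lower rows). Circles are Cy5 arrays and triangles Cy3 arrays, with HMGA2 cells in red and siHMGA2 cells in blue. Rows were chosen for a large difference of one sign in both dye pairs, so a gap between the colours is built into the choice.

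The highest feature was TEL, an ETS-family repressor also known as ETV6. It read 3.16 and 3.23 in HMGA2 cells, against -0.94 and -2.01 in siHMGA2 cells. HMGA2 cells stood above ROSE199 and siHMGA2 cells below it on both arrays, and the difference was 4.67 ± 0.57 (25.5-fold). IGFPBP, an IGF-binding protein, read 2.93 and 2.99 in HMGA2 cells, against -0.70 and -0.998 in siHMGA2 cells (3.81 ± 0.18, 14.0-fold). Peripherin, an intermediate filament protein of peripheral neurons, read 2.41 and 2.28 in HMGA2 cells, against -0.35 and -1.26 in siHMGA2 cells (3.15 ± 0.39, 8.89-fold). These differences came mostly from the HMGA2 side. So did those of NO3 (2.22 ± 0.23), H-rev107 (2.11 ± 0.34) and the MYC-family oncogene N-myc (1.59 ± 0.10), where HMGA2 cells were 1.82, 1.33 and 1.27 above ROSE199. Sortilin, a sorting receptor of the Golgi, read 1.08 and 1.01 in HMGA2 cells, against -0.38 and -2.26 in siHMGA2 cells (2.37 ± 0.90).

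Of 6 epithelial and ovarian surface features 3 were called higher and none lower, with a median difference of 1.57, beside 12.2% of all features higher. Basonuclin, a zinc-finger protein of proliferating epithelial and germ cells, read 0.75 and 0.54 in HMGA2 cells, against -2.41 and -3.39 in siHMGA2 cells (3.55 ± 0.39, 11.7-fold). P-cadherin, a junctional adhesion protein, read 0.07 and 0.06 in HMGA2 cells, against -1.26 and -3.00 in siHMGA2 cells (2.20 ± 0.87). Megakaryocyte potenciating factor, a product of the mesothelin gene, read 0.15 and 0.10 in HMGA2 cells, against -2.09 and -2.31 in siHMGA2 cells (2.33 ± 0.08). HMGA2 cells were thus near ROSE199 for these 3 features and siHMGA2 cells far below it. E-cadherin (0.52 ± 0.37), WT1 (0.94 ± 0.22) and DOC-2 (0.80 ± 0.35) were not called. E-cadherin was below ROSE199 in both groups, by a mean of -0.90 in HMGA2 cells and -1.42 in siHMGA2 cells. The Coxsackie and adenovirus receptor homolog, a tight-junction protein, was higher in HMGA2 cells (1.29 ± 0.07), though at 0.87 without background subtraction and 0.93 in the deposited table. Of the 7 adhesion and junction genes it was the only one higher and CD44 the only one lower, beside 12.2% and 8.68% of all features, and the median was -0.33. Syndecan-1 (-0.91 ± 0.04), Cx43 (-0.37 ± 0.21) and Thy-1 (-0.33 ± 0.28) were not called. Mesenchymal genes had P9ka42a lower, beside 8.68% of all features, and 4 of 5 not called. TGFBT2R, a TGF-beta receptor, was at 0.41 ± 0.39, Hic-5 at -0.29 ± 0.03, Thy-1 at the value above and the list median at -0.29 (0.083 with beta actin centring). In RNA of whole cultures, fewer cells of a type and less RNA per cell cannot be told apart.

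Secreted regulators had 4 of 13 members higher and none lower, beside 12.2% and 8.68% of all features, with a median of 0.25 (-0.023 in the authors' deposited table). FISP-12, the mouse name of connective tissue growth factor, read -0.68 and -0.90 in HMGA2 cells, against -4.42 and -5.34 in siHMGA2 cells. Both groups were below ROSE199, siHMGA2 cells by far more, and the difference was 4.09 ± 0.35 (17.0-fold). Cyr61, of the same CCN family, was not called at 0.94 ± 0.80, with -0.24 and -0.29 in HMGA2 cells against -0.37 and -2.02 in siHMGA2 cells. Follistatin related protein (2.61 ± 0.53) and TSC36 (2.02 ± 0.35), a TGF-beta-induced follistatin-like protein, were the remaining higher members beside IGFPBP. By their names these 2 features may stand for 1 gene, which was not checked, so the 4 higher members may not be separate genes. PDGF (-0.76 ± 0.06), TGF beta (-0.64 ± 0.10) and IGF-2 (0.25 ± 0.04) were not called.

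Extracellular matrix genes had 3 of 10 members higher and none lower, beside 12.2% and 8.68% of all features, with a median of 0.42. Lox, which crosslinks collagen, read -0.57 and -0.75 in HMGA2 cells, against -2.25 and -2.68 in siHMGA2 cells (1.81 ± 0.12). Agrin, a basement membrane proteoglycan, was higher at 1.46 ± 0.35. Thrombospondin 1, a matricellular glycoprotein, was higher at 1.04 ± 0.21, at -1.17 and -2.03 in HMGA2 cells against -1.99 and -3.28 in siHMGA2 cells, and kept that call under only 5 of 11 alternatives, being at 0.31 in the sample channel alone. Collagen alpha read -2.95 and -2.78 in HMGA2 cells, against -3.22 and -3.47 in siHMGA2 cells. It was low in both groups and not called (0.48 ± 0.21). T16 (-0.91 ± 0.77), Osteonectin (0.93 ± 0.02) and the Lox relative LOXRP (-0.86 ± 0.01) were not called either.

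Growth-suppressive genes had 4 of 12 members higher, beside 12.2% of all features, and 1 lower, about the 8.68% of all features, with a median of 0.65. Beside H-rev107, a phospholipase that suppresses growth of RAS-transformed cells, and TSC36, these were LOT1 (1.62 ± 0.28), a zinc-finger protein lost in ovarian cancer lines, and Par4 (1.51 ± 0.37), a pro-apoptotic protein that RAS is known to repress. LOT1 read -0.28 and -0.48 in HMGA2 cells, against -1.63 and -2.38 in siHMGA2 cells. Par4 read -0.35 and -0.34 in HMGA2 cells, against -2.23 and -1.49 in siHMGA2 cells. For both, HMGA2 cells were closer to ROSE199. BCSC-1, a breast cancer suppressor candidate, was the lower one (-2.03 ± 0.23). MEN1 (0.83 ± 0.03), P53 (0.51 ± 0.11) and NF1 (-0.35 ± 0.03) were not called.

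**Figure D3:**
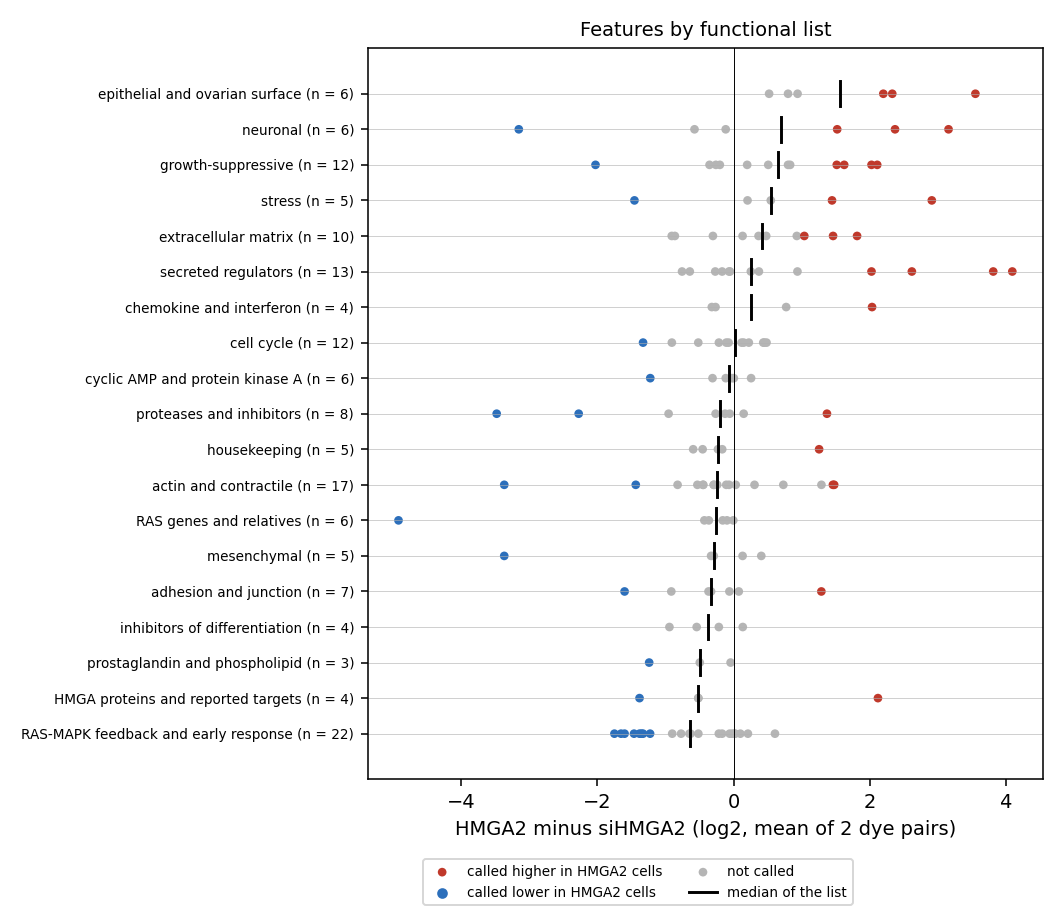
Mean difference between HMGA2 and siHMGA2 cells (log2, x axis) for every member of the 19 functional lists, 1 row per list, with the list median as a bar. The epithelial list has the highest median (1.57) and the RAS-MAPK list the lowest (-0.64), and in most lists the members not called lie within 1 of zero.

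Of 17 actin and contractile genes 2 were higher and 2 lower, close to the 12.2% and 8.68% of all features, with a median of -0.24 (0.11 with beta actin centring). TPM2, a tropomyosin, was higher at 1.47 ± 0.11 and Ril, a PDZ-LIM protein of actin fibres, at 1.46 ± 0.20, while P9ka42a and FHL2 were lower. TPM2 was at 0.81 in the sample channel alone, short of a call, and Ril fell just short in the deposited table (0.996). Alpha actinin (-0.82 ± 0.04) and Rnd3-Rho8 (0.73 ± 0.17) were not called. The neuronal list had Peripherin, Sortilin and NAP-22 (1.52 ± 0.20), a growth-cone protein, higher and Neuritin lower among 6 members, beside 12.2% and 8.68% of all features, with a median of 0.70. NPRAP (-0.57 ± 0.35) and Collapsin-2 (-0.12 ± 0.06) were not called. Of 12 cell cycle genes CyclinD1 alone was called, as lower, about the 8.68% of all features. Ki-67, a proliferation marker, read -0.91 ± 0.06, RB 0.45 ± 0.30 and CENPC 0.48 ± 0.20 (median 0.02, or -0.064 with median centring).

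In the stress list, TRPM-2, a RefSeq synonym of clusterin, a secreted chaperone, but also the symbol of a channel gene, was higher in HMGA2 cells at 2.91 ± 0.28 (7.50-fold) and P5 protein, a disulfide isomerase, at 1.44 ± 0.16. GADD153, the stress-induced factor CHOP, was lower at -1.45 ± 0.01, with 0.91 and 0.54 in HMGA2 cells against 2.37 and 1.99 in siHMGA2 cells. The list thus held 2 higher and 1 lower of 5 members, beside 12.2% and 8.68% of all features, with ORP150 at 0.54 ± 0.43 and a median of 0.54. Interferon induced gene was higher (2.03 ± 0.40) among 4 chemokine and interferon features (median 0.25, or -0.036 with housekeeping centring), beside 12.2% of all features. Mob-1, a CXC chemokine, at 0.77 ± 0.23, Schlafen2 (-0.32 ± 0.06) and MHC (-0.27 ± 0.21) were not called. On the single array of ROSE199 cells with the empty vector, Interferon induced gene read 1.58 and Mob-1 3.07 over ROSE199. Both were above the means of HMGA2 cells, 0.79 and 1.34.

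Cyclooxygenase 1, a prostaglandin synthase, was lower at -1.24 ± 0.03 among 3 prostaglandin and phospholipid genes, whereas its inducible relative Cox2 (-0.50 ± 0.02) and PS-PLA1 (-0.04 ± 0.36) were not called (median -0.50). Prkar2b, a regulatory subunit of protein kinase A, was lower at -1.22 ± 0.51 among 6 cyclic AMP genes (median -0.07), with AKAP-KL at -0.31 ± 0.13. The prostaglandin and cyclic AMP lists thus had 1 lower member each, beside 8.68% of all features. Both Cyclooxygenase 1 and Prkar2b had ROSE199 not above blank on 1 array, and without background subtraction they were at -0.81 and -0.78, short of a call, as was Cpg21 at -0.84. The 4 inhibitors of differentiation, which block basic helix-loop-helix factors, had no called member, beside 20.9% of all features called. Their median was -0.38 (0.010 with beta actin centring), with ID2 at -0.94 ± 0.14 and ID1 at -0.54 ± 0.07. Of 5 housekeeping genes HPRT was higher (1.25 ± 0.23), beside 12.2% of all features. GAPDH (-0.59 ± 0.14), Beta actin (-0.45 ± 0.16) and Alpha tubulin (-0.23 ± 0.22, saturated on at least 1 of the 4 arrays) were not called, with a list median of -0.23 (0.27 with beta actin centring).

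Outside the lists, Steroid sensitive gene (2.09 ± 0.27), P53 binding protein (1.91 ± 0.55), Red-1 (1.88 ± 0.33), Cca1 (1.83 ± 0.20), Mama (1.61 ± 0.08), ETF (1.37 ± 0.74), PRP (1.06 ± 0.17) and the clones ESTAA673854 (2.50 ± 0.58), ESTAA620224 (1.22 ± 0.21) and ESTAA119143 (1.02 ± 0.07) were also called higher. Called lower outside the lists were Hepatocellular carcinoma antigen (-1.88 ± 0.03), Balb aldose reductase related (-1.87 ± 0.09), E1B 19k Bcl-2 BP (-1.65 ± 0.57), the clone ESTAA791601 (-1.42 ± 0.02), Sex comb on midleg homolog (-1.41 ± 0.20), the leucine-zipper factor CEBPG (-1.33 ± 0.03) and RPT-1r (-1.28 ± 0.48). Hepatocellular carcinoma antigen read 1.11 and 1.59 in HMGA2 cells, against 2.95 and 3.50 in siHMGA2 cells. It was above ROSE199 in both groups, as was RPT-1r at 1.31 and 1.46 in HMGA2 cells against 2.11 and 3.23 in siHMGA2 cells. In the Cy5 pair alone RPT-1r was at -0.80 and ETF at 0.63, short of a call. In P53 binding protein 1 of the 4 sample readings was not above blank, and it was at 0.70 in the deposited table, where CEBPG was at -0.30 and Sex comb on midleg homolog at -0.70. In the sample channel alone Mama was at 0.72 and ESTAA620224 at 0.57, and ESTAA791601 was not called at -1.02. Mama averaged 1.04 over ROSE199 in HMGA2 cells, below the 1.57 read on the single empty-vector array. PRP kept its call under 8 of 11 alternatives and was at 0.85 without background subtraction, and ESTAA119143 kept its call under 6 of 11, with a lowest value of 0.70.

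Set beside their own ROSE199 readings, called features mostly had the siHMGA2 cells as the group away from that line. Of the 38 higher features, 22 had a mean at least 1 from ROSE199 in siHMGA2 cells alone, 6 in HMGA2 cells alone, 2 in both on opposite sides, 2 in both on the same side and 6 in neither. Of the 27 lower features, 17 had it in siHMGA2 cells alone, 2 in HMGA2 cells alone, 2 in both on the same side and 6 in neither. The 2 sets of ratios share the ROSE199 RNA, so these counts describe which reading differed and are no overlap of independent lists. Collagen alpha, SM22 and T16 were at least 1 below ROSE199 in both groups without a call between them, and Trancript associated was above it in both, at 1.17 in HMGA2 cells and 1.74 in siHMGA2 cells (-0.57 ± 0.33).

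**Figure D4:**
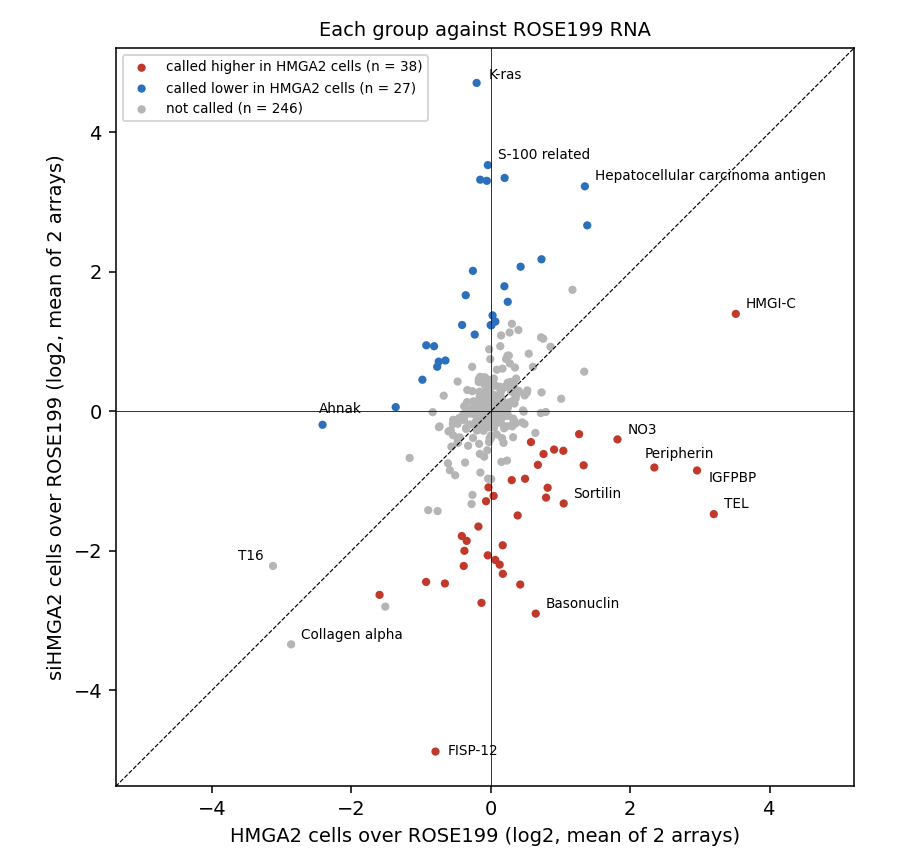
Mean log2 ratio over ROSE199 in HMGA2 cells (x axis) and in siHMGA2 cells (y axis), 1 point per feature (311 in all), with the line of equal values dashed. Called features spread mainly along the y axis, from K-ras (-0.20 in HMGA2 cells, 4.71 in siHMGA2 cells) to FISP-12 (-0.79 in HMGA2 cells, -4.88 in siHMGA2 cells), while TEL, IGFPBP and HMGI-C lie far along the x axis.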

How the data were processed

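Each array was a spotted 2-colour array of 1760 spots, of which 37 were blank and 325 carried beta actin. Per the file headers (version 5), the deposited files hold the intensity of each spot and its local background in both channels. The authors' deposited table holds log2 ratios, whose background correction and centring are not given in the sources used here. Its direction, sample over ROSE199 on each array, was read from correlations of 0.841 to 0.948 with the spot ratios (column medians -0.10 to 0.20).

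Spots marked poor (21 to 64 per array of the 4) were left out. Background was corrected by normexp (offset 50), ratios were centred by loess (span 0.3, 4 iterations) without blank and beta actin spots, and spots of 1 name were averaged (R 4.3.3, limma 3.58.1). A channel counted as above blank past the blank mean by 3 SD. SFB1 posphatase was not above blank in either group and is given no fold. Median net sample signals were 1953 and 1896 for HMGA2 and 542 and 724 for siHMGA2, and precision is limited by the number of arrays. The calculation was tested on simulated data.

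Named features are HMGI-C, K-ras, Ha-ras, all called features, up to 3 uncalled members of each list by size and the 5 with the widest dye gap. Others were added after their values were seen. Members, lists and the call rule were chosen with earlier results of these data known. Features were added to lists by name, a glycolysis list was dropped because GAPDH was its only measured member, and RPT-1r and the PDGF receptor were not placed in lists that had named them. Of the alternatives tried, 13 were set beforehand and 3 were added after seeing the data.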

Additional observations from a re-analysis of the deposited data

Results flagged for a closer look

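TEL and Sortilin were the 2 features with a mean at least 1 above ROSE199 in HMGA2 cells and at least 1 below it in siHMGA2 cells, every array of a group lying on its own side. TEL differed by 4.67 between the groups (3.20 in HMGA2 cells, -1.47 in siHMGA2 cells). Sortilin differed by 2.37 (1.04 in HMGA2 cells, -1.32 in siHMGA2 cells), with siHMGA2 arrays 1.88 apart. These differences were not tested, since each group was taken as 1 RNA.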

How the results depend on the processing

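Of the 38 higher and 27 lower features, 28 and 15 kept their call under all of 11 alternatives (centring, background, scaling, poor spots, the deposited table, single dye pairs and the sample channel alone), and no called feature changed sign. Thrombospondin 1 kept it under 5 and ESTAA119143 under 6. K-ras stayed between -5.12 and -4.39 and HMGI-C between 1.72 and 2.49. Beta actin centring gave 58 higher and 24 lower features (70.7% higher against 58.5%) and moved the median of all features to 0.18. Median and housekeeping centring and the deposited table moved it to -0.12, -0.21 and -0.16. The stricter call (mean 1.5, each pair 1) left 26 higher and 14 lower features, fewer by construction. Leaving out arrays gave 36 to 44 higher and 26 to 30 lower features. Those fits without a single siHMGA2 array, with dyes unbalanced, were added after seeing the data, as was the one without EST clones.

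List medians moved by under 0.24, the SD of a single feature's paired difference taken from the median gap, in 257 cases. They moved by more in 37, and by more with a change of sign in 10. Of the 257, 7 also crossed zero, 5 of them for the cell cycle list. That limit was chosen after the files were seen and is wider than the spread of a list median. The cause was not tested. With beta actin centring the RAS genes (0.064), actin and contractile genes (0.11), mesenchymal genes (0.083), inhibitors of differentiation (0.010) and housekeeping genes (0.27) crossed zero. That centring gave -0.22 for HMGA proteins and targets, -0.36 for RAS-MAPK genes, 0.81 for extracellular matrix, 2.06 for epithelial genes, -0.19 for prostaglandin genes, 1.15 for growth-suppressive genes, 0.99 for neuronal genes and 0.78 for stress genes. Median centring gave -0.51 for proteases, -0.66 for adhesion genes and -0.33 for cyclic AMP genes. Housekeeping centring gave -0.60, -0.74 and -0.41 for the same lists and -0.036 for chemokine and interferon genes. Without background subtraction the extracellular matrix median was 0.17. The deposited table gave -0.76 for HMGA proteins and targets, -0.023 for secreted regulators, -1.16 for prostaglandin genes and 0.19 for stress genes. Over features above blank throughout (275, dropping dim members), proteases were at -0.54, chemokine and interferon genes at 0.77 and stress genes at 0.99. The sample channel alone gave -0.27 for HMGA proteins and targets, 0.037 for RAS genes, -0.75 for proteases, 0.43 for cell cycle genes, -0.76 for prostaglandin genes and 1.04 for stress genes. Leaving out arrays gave -0.70 to -0.034 for adhesion genes, 0.080 to 1.10 for stress genes, 1.15 to 1.79 for epithelial genes, 0.31 to 0.70 for extracellular matrix, -0.56 to 0.032 for proteases, -0.024 to 0.21 for secreted regulators and -0.31 to 0.046 for mesenchymal genes. The RAS-MAPK and epithelial medians kept their sign under every alternative. So did the medians of HMGA proteins and targets, extracellular matrix, adhesion, prostaglandin, growth-suppressive, neuronal and stress genes. Both channels were dimmer on the siHMGA2 arrays than on the HMGA2 arrays, which limits the dim features. On siHMGA2 replicate 2, ROSE199 was not above blank for 35 features and the siHMGA2 RNA for 3.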
